A study of Mus musculus with 18 samples.

Results

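RNA sequencing counts of CD8+ T cells labelled Tra2bKO and taken at day 4 after stimulation were compared with those of naive CD8+ T cells at day 0. The comparison takes in every named gene of the deposited tables, 55536 of 81881 rows, once rows with purely numeric identifiers and spike-in rows are left out. Of these genes, 19776 had enough counts to be tested in 2 knockout libraries and 8 naive libraries, out of 18 libraries in the series. The labels give all samples the genotype OT-I, a transgenic T cell receptor specific for the ovalbumin peptide SIINFEKL, and the cells came from spleen and lymph nodes. The naive cells were unstimulated. The knockout cells, and 8 control libraries from cells given a scrambled sequence, had received SIINFEKL with antibodies against OX40 and 41BB, receptors of the tumour necrosis factor family that deliver costimulation. Stimulation, time and the Tra2b knockout therefore differ together between knockout and naive cells and cannot be told apart in that comparison, so the controls, which were also at day 4, are used below to place the knockout values. RNA was purified with a QIAGEN miRNeasy Micro kit and amplified from polyA tails with a SMARTer ultra-low input kit. The labels give no method of gene editing, no position in Tra2b and no animal of origin, so p-values describe library-to-library variation alone, some of it possibly technical.

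TRA2B is an SR-like protein that binds GAA-rich stretches in exons and favours their inclusion in the mature mRNA. Its own gene carries an ultraconserved poison exon with in-frame stop codons, and transcripts that include that exon are handed to nonsense-mediated decay, which lets the protein limit its own level. The series' title links this exon to signals from the T cell receptor. When a naive CD8 T cell meets its peptide it leaves quiescence, grows, divides many times and takes on effector functions, and this is accompanied by broad changes in splicing as well as in transcription.

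Levels below are given as CPM, the counts of a gene scaled to a common library size after TMM normalisation. Where a pair of values stands against a trio, the pair is knockout 1 and knockout 2, and the trio is the lowest, median and highest library of the other group. A gene rose or fell if edgeR's quasi-likelihood test gave a Benjamini-Hochberg adjusted p under 0.05 over all genes tested, and the value after ± is the standard error (SE) of the log2 fold change.

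The libraries differed in make-up beyond the study's groups. The naive libraries held 68249844 to 86932452 counts each, and the knockouts held 79197461 and 93495846. Cd8a stood at 548 and 444 CPM in the knockouts and 877, 1020 and 1107 CPM in the naive libraries, and Cd4 at 0.205 and 0.692 against 0.0881, 0.376 and 1.48 CPM, so both genes matched the label CD8+ T cell. The summed level of 10 CD4 and regulatory T cell markers was higher in the knockouts, at 203 and 255 against 67.8, 72.4 and 99.4 CPM. Of these markers 3 rose and 4 fell. Most of the sum in the knockouts is Ctla4 and Il2ra, activation genes that are given below. In the controls the sum was 159, 207 and 252 CPM. The label OT-I did not hold equally. Trbv12-1, the variable segment of the OT-I beta chain, supplied 99.4 and 99.7% of the counts on beta chain variable segments in the knockouts but 5.95, 6.66 and 12.4% in the naive libraries, where 19 beta segments exceeded 1% in the median library. Trav14 segments, the family of the OT-I alpha chain, supplied 97.6% of the alpha variable counts in both knockouts and 11.9, 13.1 and 24.2% in the naive libraries. In the 8 control libraries the Trbv12-1 share was 99.6 to 99.8%. The libraries labelled naive therefore carried a diverse receptor repertoire against their label, and every difference between knockout and naive below is also a difference between these receptor make-ups, whose part in it was not tested.

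The naive libraries also split by sex-linked transcripts. Xist, the RNA of the inactive X chromosome, stood at 109 to 127 CPM in naive 1, 2, 6 and 8 and at most 0.609 CPM in naive 3, 4, 5 and 7, while the Y-linked Ddx3y stood at most at 4.05 CPM in the first set and at 115 to 137 CPM in the second. Both knockouts held both, with Xist at 50 and 50.9 CPM and Ddx3y at 26.7 and 32 CPM. Against either set of naive libraries alone, 7007 and 7914 genes were called, in that order.

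Markers of antigen-presenting cells moved with the groups as well. The summed level of 11 genes of the MHC class II pathway was 175 and 139 CPM in the knockouts against 1543, 2726 and 3794 CPM in the naive libraries, and all 11 fell. Of 12 dendritic cell markers 9 fell and 0 rose, with summed levels of 127 CPM in both knockouts against 299, 365 and 399 CPM. Clec9a, a receptor of cross-presenting dendritic cells, stood at 0.0899 and 0.11 against 5.38, 9.18 and 18 CPM, and the dendritic cell markers Siglech and Clec10a had 0 CPM in both knockouts. Among 17 B cell markers 10 fell and 0 rose, with sums of 877 and 696 CPM against 817, 1010 and 1437 CPM, which overlapped. Most of each sum is Ighm, which was not called and is given at the end, so the overlap describes that gene above all. NK cell markers gave 9 falls and 1 rise among 13 genes, and their summed level overlapped too (2006 and 1728 against 1857, 2044 and 2420 CPM). Red cell markers summed to 137 CPM in knockout 1 and 14.9 CPM in knockout 2 against 4.64, 17.8 and 45.9 CPM in the naive libraries. Over 18 such measures 9 passed an exact two-sided permutation test with p = 0.0222, the smallest that 2 against 8 libraries can give, and adjusted p = 0.0444. In bulk RNA, fewer cells of a type and less RNA per cell cannot be told apart.

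**Figure D1:**
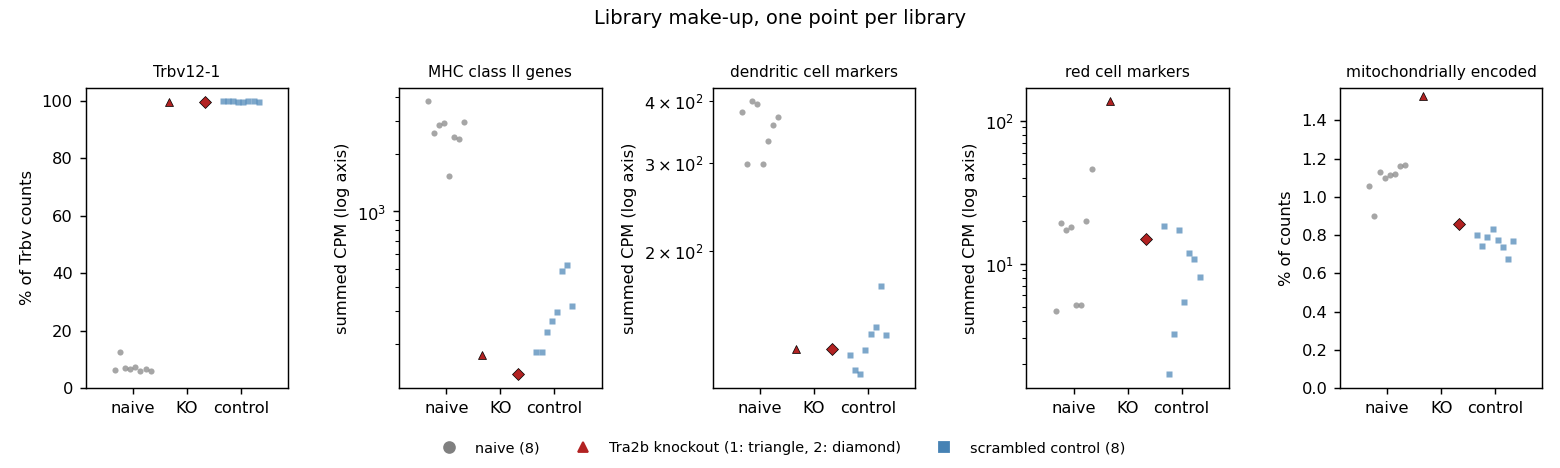
Make-up of each library: the share of Trbv12-1 among beta variable segment counts and of mitochondrial genes among all counts, in percent, and the summed CPM of MHC class II, dendritic cell and red cell markers on a log axis, with 1 point per library in the naive, knockout and control groups. Trbv12-1 lies above 99% in both knockouts and at or below 12.4% in the naive libraries, and the MHC class II sum lies at 175 and 139 CPM in the knockouts against at least 1543 CPM in the naive libraries.

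The 2 knockout libraries also differed from each other. Knockout 1 held more mitochondrial counts (1.53% against 0.859%, naive 0.898, 1.12 and 1.17%). Knockout 2 was higher than knockout 1 in long transcripts, by a median of 0.31 on the log2 scale in the 1575 genes with the longest exons, and lower by 0.14 in the 1575 with the shortest. Genes called mainly through 1 of the libraries are given below with the value that remained without it.

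Tra2b itself (ENSMUSG00000022858.16, minus strand of chromosome 16, 22244549 to 22266005 in GRCm38) was transcribed in the knockout libraries. It stood at 361 and 370.5 CPM against 248, 286 and 352 CPM in the naive libraries, so both knockouts lay above every naive library (log2 fold change 0.37 ± 0.10, adjusted p = 0.009). In the controls it was 338, 484 and 526 CPM, and the knockouts were not called against them (log2 fold change -0.34 ± 0.13, adjusted p = 0.0899), but they were called lower without control 2 (adjusted p = 0.00803) and with the length and GC trend removed (log2 fold change -0.72, adjusted p = 0.00958). The rise over naive was lost without knockout 1 (adjusted p = 0.0626) or knockout 2 (0.0561), and against naive 3, 4, 5 and 7 alone (0.0834). Since the edited position is not given, the level of the whole transcript does not check the label.

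What the Tra2b transcripts contained differed more than their amount. The poison exon of Tra2b, exon 2 of Tra2b-206, spans 276 bases from 22258986 to 22259261 on the minus strand of chromosome 16. Its coding part opens with a stretch rich in GAA and ends at the premature stop codon, shown in capitals in the sequence from GENCODE M21 (GRCm38), minus strand, chr16:22259181-22259261:

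Tra2b poison exon: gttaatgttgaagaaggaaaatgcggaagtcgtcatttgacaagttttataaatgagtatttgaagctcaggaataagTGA

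The whole exon holds 12 copies of AGAA, the core of the motif TRA2B prefers, counted on the transcript strand. Only 0.224% of 4900 annotated exons of similar length held as many, while 79.6% held at least 1. The 2 of 9 annotated Tra2b transcripts that include this exon took 1.04% (294 of 28151 counts, 95% exact binomial interval 0.929 to 1.17%) and 1.02% (345 of 33747, 0.918 to 1.14%) of the Tra2b counts in the knockouts. In the naive libraries they took 9.07, 11.8 and 14.5%, with a mean of 12 ± 1.86% (SD, n = 8), and in the controls 3.73, 6.82 and 10.7%. The knockout mean was 10.93 percentage points under the naive mean (difference -10.93, exact permutation test, two-sided, p = 0.0222, the smallest possible), and both knockouts lay below all 16 other libraries. The main coding transcript, Tra2b-204, took 95.8% in both knockouts. These intervals cover counting error only.

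Over all genes, 8837 of 19776 (44.7%) were called between knockout and naive, 4177 higher (21.1%) and 4660 lower (23.6%), and 10149 had an unadjusted p under 0.05. Correcting for exon length and GC content shifted the median log2 fold change from -0.08 to 0.16 and the split to 6040 higher and 3564 lower. A change of at least 2-fold was called for 4078 genes (20.6%), 1248 higher (6.31%) and 2830 lower (14.3%). Among the 7873 genes whose log2 CPM averaged 4 or more, 4929 were called (62.6%), 2915 higher (37%) and 2014 lower (25.6%). In both knockouts 4208 genes lay above every naive library (21.3%) and 4977 below (25.2%), or 46.4% in all. Against the controls 2772 of 18651 genes were called (14.9%), 1421 higher and 1351 lower, and without knockout 2 that number was 651. The controls themselves differed from naive in 71.5% of 17078 genes (32.5% higher and 39% lower). The knockout and the controls share the naive libraries as their reference, so their changes from naive are given side by side, and only the direct comparison of knockout with control tests a difference between them.

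The genes named next were chosen among called genes whose log2 CPM averaged 4 or more and whose knockouts both lay outside the naive range. Markers of other cells, receptor segments and predicted genes were left out. The largest rise was in Asns, asparagine synthetase (ENSMUSG00000029752.12), at 193 and 183 CPM against 5.06, 10.6 and 21.2 CPM (log2 fold change 4.15 ± 0.36, adjusted p = 5.34e-06). Nrp1, the neuropilin co-receptor, reached 82.2 and 96.8 against 6.68, 8.74 and 12 CPM (log2 fold change 3.39 ± 0.15, adjusted p = 2.18e-08). Ctse, the endosomal protease cathepsin E, reached 187 and 151 against 12.9, 16.1 and 21.6 CPM (log2 fold change 3.35 ± 0.17, adjusted p = 5.86e-08). That both knockouts lay above the highest naive library in these genes follows from that choice. Pdcd1, the inhibitory receptor PD-1, stood at 275 and 271 against 22, 32.1 and 64.8 CPM (log2 fold change 2.88 ± 0.29, adjusted p = 1.01e-05), and St14, a membrane-bound serine protease, at 59.5 and 68.4 against 6.58, 7.76 and 13.7 CPM (log2 fold change 2.89 ± 0.21, adjusted p = 9.42e-07). Bcat1, which transaminates branched-chain amino acids, reached 144 and 145 against 18.8, 31.1 and 42.8 CPM (log2 fold change 2.32 ± 0.24, adjusted p = 1.25e-05). Of these genes Asns stood above every control (25, 38.9 and 64.3 CPM) and Nrp1 below every control (112, 208 and 261 CPM), while Ctse, Pdcd1 and Bcat1 were not called against the controls (log2 fold change 0.03, -0.19 and 0.14). Nrp1 was called below the controls (log2 fold change -1.18 ± 0.24, adjusted p = 0.00832), a call lost without knockout 1 (adjusted p = 0.0808) or knockout 2 (0.0941).

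Tmem87a, Slco4a1, an organic anion transporter, and Cemip2, a cell surface hyaluronidase, were also among the rises. In Polq, the DNA polymerase theta of end joining, the knockouts were far apart, at 26.8 and 76.2 CPM in knockout 1 and 2. Both were above every naive library, as the choice required (6.41, 8.13 and 11 CPM, log2 fold change 2.63).

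Among the falls, Itgae, the CD103 chain of an integrin that binds E-cadherin, was the largest, at 0.963 and 1.15 CPM against 82, 128 and 141 CPM (log2 fold change -6.80 ± 0.24, adjusted p = 4.52e-09). Slc6a19, a transporter of neutral amino acids, stood at 0.578 and 0.615 against 33.8, 46.2 and 83.2 CPM (log2 fold change -6.39 ± 0.49, adjusted p = 1.34e-06). Igfbp4, which binds insulin-like growth factors, stood at 1.64 and 1.34 against 37.9, 91.6 and 119 CPM (log2 fold change -5.85 ± 0.45, adjusted p = 1.53e-06). In all 3 both knockouts lay below the lowest naive library, which the choice of genes required. Itgae was also low in the controls (0.873, 2.78 and 8.64 CPM). Tmie, Cnr2, the cannabinoid receptor CB2, Apol7c, Plbd1, Rab7b and Wdfy4 fell by 5.31 to 6.15 on the log2 scale. Wdfy4, which dendritic cells need for cross-presentation, was at 0 and 1.08 CPM against 10.7, 21.7 and 33.6 CPM, and its call was lost with limma voom (adjusted p = 0.0511). The MHC class II and dendritic cell sums above differed between the same libraries, and their part in these falls was not tested. The remaining 3 of the 12 falls chosen in this way, Oas2, Ifit1bl1 and Iigp1, are interferon-stimulated genes described further on.

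**Figure D2:**
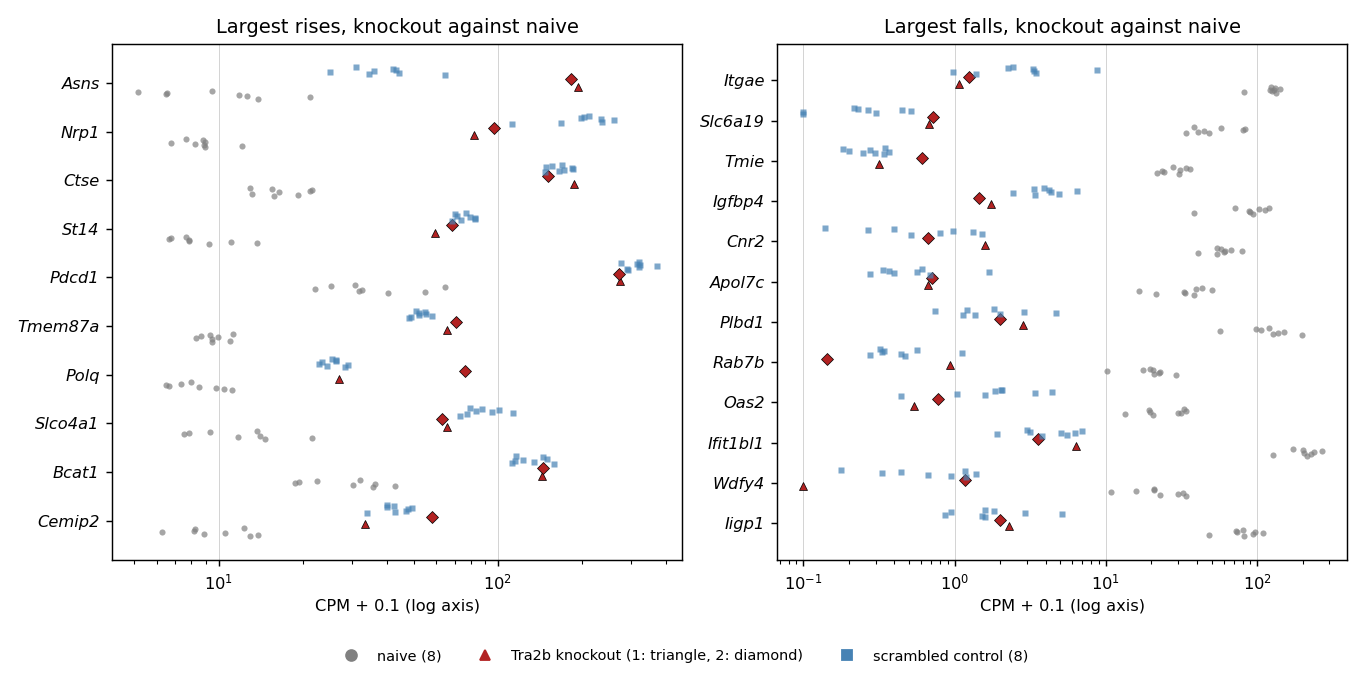
Levels of 10 of the 12 largest rises and of the 12 largest falls between knockout and naive under the limits given above, as CPM plus 0.1 on a log axis, with each naive, knockout and control library as a point. Asns lies at 193 and 183 CPM in the knockouts against at most 21.2 CPM in the naive libraries, and Itgae at 0.963 and 1.15 CPM against at least 82 CPM. Knockout points outside the naive range were a condition of choosing the genes plotted.

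The genes were grouped into 37 lists of biological function, whose counts are read against the 21.1% of genes that rose and 23.6% that fell among all genes tested, with a median log2 fold change of -0.08. In DNA replication, mitosis, nuclear oxidative phosphorylation and nucleotide synthesis between 87.2 and 100% of the members rose. In T cell identity, naive and memory genes, MHC class I presentation and interferon-stimulated genes between 81.8 and 91.7% fell. List counts of controls against naive are read against 32.5% higher and 39% lower among all genes tested there. Those of knockout against control are read against 7.62% higher and 7.24% lower. The control comparison rests on 8 and 8 libraries and the knockout comparison on 2 and 8, so their counts are not directly comparable.

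**Figure D3:**
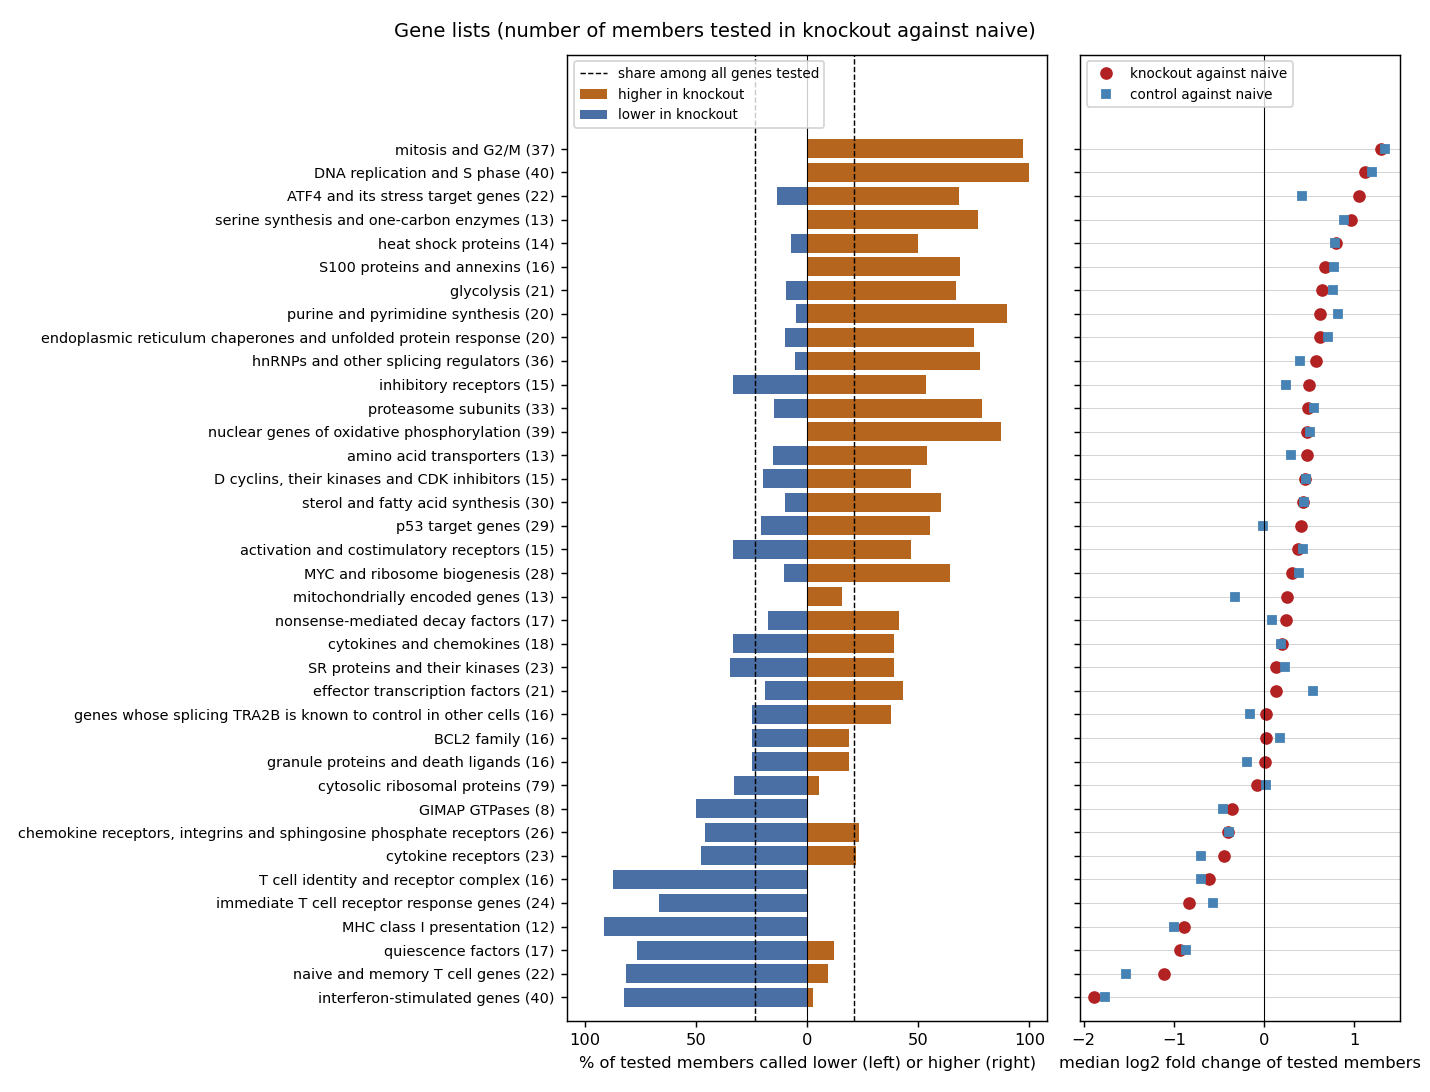
For each of 37 gene lists, the percent of tested members that fell (left bars) and rose (right bars) between knockout and naive, with dashed lines at the shares among all genes (23.6% and 21.1%), and beside it the median log2 fold change of the members for knockout against naive (circles) and control against naive (squares). DNA replication has a median of 1.12 in the knockouts and 1.19 in the controls, and interferon-stimulated genes -1.88 and -1.76.

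Naive T cells hold a programme of homing and quiescence genes, and most of it was lower in the knockouts. Of 22 naive and memory genes 18 fell and 2 rose (median log2 fold change -1.11). Satb1, a chromatin organiser, stood at 45.3 and 46.2 CPM against 178, 222 and 256 CPM (log2 fold change -2.22 ± 0.13, adjusted p = 2.15e-07). Lef1, a partner of beta-catenin that keeps T cells undifferentiated, stood at 131 and 122 against 364, 447 and 602 CPM (log2 fold change -1.84 ± 0.18, adjusted p = 7.64e-06). Its relative Tcf7, which encodes TCF-1, fell less, to 284 and 249 against 389.8, 511 and 597 CPM (log2 fold change -0.90 ± 0.14, adjusted p = 0.000213), and was above the controls (143, 162 and 232 CPM, log2 fold change 0.65 ± 0.15, adjusted p = 0.0141), which was lost without knockout 1 (adjusted p = 0.115) or knockout 2 (0.0692). Il7r, the interleukin 7 receptor that supports survival of resting cells, stood at 38.1 and 31.3 against 249.8, 303 and 718 CPM (log2 fold change -3.32 ± 0.42, adjusted p = 5.33e-05). In all 4 genes both knockouts lay below the lowest naive library. In the controls 18 of the same 22 genes were lower than naive, with a median of -1.53. The knockouts were called higher than the controls in 7 and lower in 3 of these genes, but in 1 and 0 without knockout 2.

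Quiescence factors fell in 13 of 17 genes and rose in 2 (median -0.93). Btg1, an antiproliferative factor that shortens mRNA tails in resting T cells, stood at 74.6 and 68.2 against 423, 535 and 674 CPM (log2 fold change -2.93 ± 0.18, adjusted p = 2.41e-07). Pik3ip1, a brake on phosphoinositide 3-kinase, was 26.4 and 24 against 139.9, 161 and 283 CPM (log2 fold change -2.83 ± 0.28, adjusted p = 9.98e-06), and it stayed above every control (8.04, 10.8 and 16.2 CPM, log2 fold change 1.20 ± 0.21, adjusted p = 0.00328). Peli1, a ubiquitin ligase, and Foxo3, a FOXO transcription factor, fell as well (log2 fold change -1.97 and -1.80). Of 8 GIMAP GTPases, small proteins of lymphocyte survival, 4 fell and 0 rose, with Gimap3 at 392 and 401 against 902, 958 and 1342 CPM. T cell identity genes fell in 14 of 16 and rose in 0 (median -0.62): Cd6 -1.42, Cd8a -0.99, the adaptor Lat -0.79 and the kinase Lck -0.75 on the log2 scale. Cd8a, at 548 and 444 CPM, lay within or just above the range of the controls (393, 462 and 519 CPM).

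Receptors that place T cells in tissues gave 12 falls and 6 rises among 26 genes (median -0.40). Besides Itgae, the gut-homing chemokine receptor Ccr9 stood at 1.45 and 1.15 CPM against 58.7, 86.8 and 111 CPM (log2 fold change -6.02 ± 0.30, adjusted p = 5.68e-08). Ccr9 is also in the dendritic cell list, since plasmacytoid cells carry it. In the opposite direction, Cxcr3, which guides effector cells to inflamed tissue, stood at 521 and 456 against 230.5, 250.2 and 299 CPM (log2 fold change 0.95 ± 0.10, adjusted p = 1.27e-05), and the integrin chain Itgb1 at 1217 and 1415 against 369.6, 512 and 590.4 CPM (log2 fold change 1.44 ± 0.13, adjusted p = 5.64e-06). Both knockouts were outside the naive range in all of these. Of 23 cytokine receptors 11 fell and 5 rose (median -0.44). Ifngr2, the signalling chain of the interferon gamma receptor, stood at 0.847 and 0.395 against 17.1, 22.3 and 25.2 CPM (log2 fold change -5.03 ± 0.31, adjusted p = 2.6e-07), and Il4ra, Il6ra and Il10ra fell by 2.17, 2.90 and 1.28 on the log2 scale.

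Inhibitory receptors rose in 8 of 15 genes and fell in 5 (median 0.50). Beside Pdcd1 and Nrp1, Ctla4, which competes with CD28 for its ligands, stood at 78.5 and 62.2 CPM against 15.6, 17.9 and 26.4 CPM (log2 fold change 1.96 ± 0.16, adjusted p = 1.82e-06). It was above the controls (27.4, 43.2 and 47.5 CPM, log2 fold change 0.81 ± 0.17, adjusted p = 0.00971), a call lost without knockout 1 (adjusted p = 0.109). Lag3, a receptor that dampens T cell signalling, stood at 26.8 and 27.5 against 3.03, 5.05 and 7.51 CPM (log2 fold change 2.45 ± 0.26, adjusted p = 1.49e-05). Activation and costimulatory receptors rose in 7 of 15 genes and fell in 5. Il2ra, the high-affinity chain of the interleukin 2 receptor, stood at 116 and 186 against 12, 21.8 and 43.3 CPM (log2 fold change 2.75 ± 0.33, adjusted p = 3.91e-05). The costimulatory receptors Tnfrsf1b and Slamf1 rose (log2 fold change 0.84 and 1.47) and Tnfrsf25, the death receptor DR3, fell to 3.93 and 2.58 against 12.5, 15.7 and 23.3 CPM. Ctla4 and Il2ra are also markers of regulatory T cells, while Foxp3, which defines those cells, stood at 0.27 and 0.241 against 1.49, 2.51 and 3.02 CPM and fell. The summed CD4 and regulatory T cell markers were higher in the knockouts, as given above. Ctla4 and Il2ra come to most of that sum in the knockouts, so it is not read as separate from their rises.

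Effector molecules moved in both directions. Of 16 granule proteins and death ligands 3 rose and 4 fell, close to the shares over all genes, with a median of 0.01. No direction is given for the list, since total count scaling made the median -0.11, removal of the length and GC trend gave 6 rises and 3 falls (median 0.39), and without knockout 1 there were 0 rises and 4 falls. Perforin, Prf1, stood at 84.3 and 75.3 CPM against 126, 146 and 189 CPM (log2 fold change -0.91 ± 0.14, adjusted p = 0.000182), below every naive library, and Gzmm and Ctsw fell with it (log2 fold change -1.44 and -0.97). Cst7, an inhibitor of granule proteases, rose (log2 fold change 0.39), which was lost without knockout 1 (adjusted p = 0.163). Cytokines and chemokines gave 7 rises and 6 falls among 18 genes, an order that total count scaling turned into 7 and 7. Ccl5, a chemokine of memory CD8 cells, fell to 14.1 and 10.4 against 149, 194 and 407 CPM (log2 fold change -4.20 ± 0.43, adjusted p = 1.21e-05), and Ltb, lymphotoxin beta, to 280.4 and 222 against 702, 868 and 943 CPM. Ccl3, an inflammatory chemokine, stood at 12.7 and 12.3 against 4.31, 5.57 and 6.3 CPM (log2 fold change 1.21 ± 0.15, adjusted p = 4.2e-05).

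Effector transcription factors rose in 9 of 21 genes and fell in 4. Irf4, whose level tracks the strength of receptor stimulation, stood at 44.1 and 86.1 CPM against 9.81, 15.5 and 18.7 CPM (log2 fold change 2.16 ± 0.22, adjusted p = 1.03e-05). Batf, its AP-1 partner, stood at 252 and 213 against 81.6, 98.7 and 115 CPM (log2 fold change 1.28 ± 0.11, adjusted p = 4.16e-06). Irf4 was above every control in both libraries (30.8, 32.8 and 37.7 CPM, log2 fold change 0.96 ± 0.16, adjusted p = 0.0031), and without knockout 2 the adjusted p was 0.0876. Bcl6, which favours memory and follicular fates, and Ikzf2, Helios, fell (log2 fold change -1.78 and -2.56). Immediate response genes of the T cell receptor, induced within hours, fell in 16 of 24 and rose in 0 (median -0.84), and in the controls 16 were lower than naive and 1 higher. Egr1, an immediate early transcription factor, stood at 13.4 and 13.8 against 41.9, 52.5 and 79.6 CPM (log2 fold change -1.99 ± 0.21, adjusted p = 1.42e-05). Zfp36, a protein that destabilises cytokine mRNAs, stood at 28.7 and 30.5 against 85.1, 106 and 127 CPM, and the NF-kappa-B regulator Nfkbid at 20.6 and 17.7 against 50.5, 54.6 and 60.7 CPM.

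The cell cycle set the clearest rises. The list for DNA replication and S phase rose in 40 of 40 genes (median 1.12), and 39 of them did not overlap with naive. Mcm4, a subunit of the replicative helicase, stood at 816 and 829 CPM against 308, 353 and 446 CPM (log2 fold change 1.22 ± 0.12, adjusted p = 8.3e-06). Rrm1, the large subunit of ribonucleotide reductase, stood at 1133 and 1084 against 298, 418 and 543 CPM (log2 fold change 1.46 ± 0.17, adjusted p = 2.66e-05), and Uhrf1, which copies DNA methylation at the fork, at 546 and 664 against 128, 212 and 247 CPM. Of 37 genes of mitosis 36 rose and 0 fell (median 1.29). Bub1b, a kinase of the spindle checkpoint, stood at 387 and 454 against 104, 148 and 212 CPM (log2 fold change 1.52 ± 0.18, adjusted p = 3.53e-05), and Ndc80, the microtubule anchor of the kinetochore, at 226 and 209.7 against 58.5, 77.7 and 116 CPM (log2 fold change 1.51 ± 0.18, adjusted p = 3.38e-05). The naive libraries were not free of these transcripts. The control medians were 1.19 for replication and 1.34 for mitosis, and against the controls the knockouts were called higher in 1 and lower in 6 of the replication genes and higher in 2 and lower in 9 of the mitosis genes.

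D cyclins, their kinases and the CDK inhibitors moved separately, with 7 rises and 3 falls among 15 genes. Cdk6, the kinase partner of D cyclins, stood at 63.3 and 81.7 CPM against 21.5, 29.1 and 36.8 CPM (log2 fold change 1.33 ± 0.15, adjusted p = 1.88e-05) and Cdk2, which drives S phase entry, at 150.2 and 145 against 68.3, 80.1 and 114 CPM. The cyclin Ccnd2 fell to 183 and 170.2 against 389, 585 and 759.8 CPM (log2 fold change -1.71 ± 0.20, adjusted p = 3.37e-05). Cdkn1b, the inhibitor p27, fell to 8 and 8.34 against 12.1, 14.4 and 16.4 CPM (log2 fold change -0.78 ± 0.14, adjusted p = 0.000557).

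Metabolic enzymes rose over several pathways. Glycolysis gave 14 rises and 2 falls among 21 genes (median 0.64), with the lactate transporter Slc16a1 at 239 and 269 CPM against 124, 130.3 and 148 CPM (log2 fold change 0.98 ± 0.07, adjusted p = 1.26e-06) and enolase, Eno1, at 2643 and 2583 against 1336, 1539 and 1884 CPM (log2 fold change 0.79 ± 0.11, adjusted p = 7.93e-05). Against the controls glycolysis was called lower in 7 and higher in 2 genes, and in 0 and 0 without knockout 2. Nuclear genes of oxidative phosphorylation rose in 34 of 39 and fell in 0 (median 0.47). Uqcrc1, a core subunit of complex III, stood at 562 and 537 against 309.7, 325 and 352 CPM (log2 fold change 0.78 ± 0.07, adjusted p = 3.83e-06). The 13 mitochondrially encoded genes gave 2 rises, mt-Nd3 and mt-Nd1, both subunits of complex I, and both were lost without knockout 1 (adjusted p = 0.0584 and 0.429; mt-Nd1 also against naive 1, 2, 6 and 8 alone, 0.0527), where the list's median was -0.25 in place of 0.25. Knockout 1 is also the library with the highest mitochondrial share.

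Biosynthesis followed. Purine and pyrimidine synthesis rose in 18 of 20 genes and fell in 1 (median 0.62), and Ppat, the committing enzyme of purine synthesis, stood at 194 and 210.2 CPM against 82.3, 94.7 and 101 CPM (log2 fold change 1.14 ± 0.08, adjusted p = 8.88e-07). Sterol and fatty acid synthesis rose in 18 of 30 genes and fell in 3 (median 0.43), with Fads1, a fatty acid desaturase, at 39.9 and 48.8 against 17.3, 22.6 and 23.5 CPM (log2 fold change 1.07 ± 0.12, adjusted p = 2.16e-05). Serine synthesis and one-carbon enzymes rose in 10 of 13 and fell in 0 (median 0.96). Mthfd2, a mitochondrial folate enzyme, stood at 300.4 and 295 against 88.7, 109 and 126 CPM (log2 fold change 1.5 ± 0.13, adjusted p = 3.03e-06) and was above every control (204, 219.9 and 248 CPM, log2 fold change 0.43 ± 0.07, adjusted p = 0.00287). Psat1, an aminotransferase of serine synthesis, stood at 385 and 364 against 101, 133 and 165 CPM (log2 fold change 1.56 ± 0.14, adjusted p = 4.65e-06).

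Target genes of ATF4, the transcription factor of the integrated stress response, were in part higher in the knockouts than in both other groups. ATF4 is translated when amino acids run short or proteins misfold, and it raises amino acid synthesis, transport and tRNA charging. Of 22 tested genes of this list 15 rose over naive and 3 fell (median 1.05). The controls gave 12 and 4 (median 0.42), where 32.5% of all genes were higher and 39% lower. In the direct comparison 13 of 22 were above the controls and 0 below (median 0.52), where 7.62% of all genes were higher and 7.24% lower. These became 11 and 0 of 23 without knockout 1 and 8 and 0 of 23 without knockout 2. Of the list's genes with a promoter in the RefSeq table, 8 of 22 (36.4%) held the ATF4 response element TGATGNAA on either strand in the 250 bases before the start, against 3.91% of 27025 genes. The list holds genes known as ATF4 targets, and all those with a promoter were counted, whether or not they changed. The excess is therefore a property of the list and no result of these data. Mars1, counted among the 22, was not matched in these data. The promoters of Asns and Pck2, the members with a match whose values in all 3 groups are given next, are shown from RefSeq GRCm38.p6, each on the strand of its gene with the match in capitals. That of Asns lies at chr6:7693210-7693459 on the minus strand and its match begins 23 bases before the start. That of Pck2 lies at chr14:55540016-55540265 on the plus strand, and its match begins 103 bases before the start and reads on the opposite strand.

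Asns promoter: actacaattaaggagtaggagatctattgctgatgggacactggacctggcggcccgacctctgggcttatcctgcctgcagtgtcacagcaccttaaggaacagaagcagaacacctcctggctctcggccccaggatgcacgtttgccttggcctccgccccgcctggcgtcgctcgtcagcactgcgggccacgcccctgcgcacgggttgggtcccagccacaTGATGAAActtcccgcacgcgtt

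Pck2 promoter: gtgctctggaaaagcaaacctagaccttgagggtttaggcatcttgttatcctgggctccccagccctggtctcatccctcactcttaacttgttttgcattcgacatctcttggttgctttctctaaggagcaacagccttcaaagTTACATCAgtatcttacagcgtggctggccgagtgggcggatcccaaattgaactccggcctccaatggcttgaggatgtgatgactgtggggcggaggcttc

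A match is a description of these letters and not a site shown to be bound. Asns stood at 193 and 183 CPM in the knockouts and 25, 38.9 and 64.3 CPM in the controls (log2 fold change 2.24 ± 0.22, adjusted p = 0.000159), so the groups did not overlap. Pck2, mitochondrial phosphoenolpyruvate carboxykinase, stood at 46 and 51.8 CPM against 8.57, 12.2 and 12.8 CPM in the naive libraries (log2 fold change 2.14 ± 0.15, adjusted p = 5.98e-07) and 8.43, 9.9 and 11.3 CPM in the controls (log2 fold change 2.32 ± 0.12, adjusted p = 2.52e-06). The naive and control ranges of Pck2 overlapped. Eif4ebp1, a repressor of cap-dependent translation, stood at 55.2 and 53.9 against 11.3, 13.1 and 15 CPM in naive (log2 fold change 2.09 ± 0.10, adjusted p = 5.13e-08) and 11.8, 14.4 and 17.8 CPM in control (log2 fold change 1.93 ± 0.14, adjusted p = 1.85e-05). Nars, asparaginyl-tRNA synthetase, stood at 422 and 444 against 197, 211 and 233 CPM (log2 fold change 1.07 ± 0.06, adjusted p = 2.41e-07), with 253, 299.9 and 331 CPM in the controls.

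Trib3, a pseudokinase induced by ATF4, stood at 14.2 and 15.3 against 0.996, 1.85 and 3.72 CPM (log2 fold change 2.84 ± 0.34, adjusted p = 4.01e-05). The Atf4 transcript itself was 190.4 and 172 CPM in the knockouts, 94.1, 111 and 114 CPM in the naive libraries and 119, 123 and 132 CPM in the controls, called against both (log2 fold change 0.78 ± 0.08, adjusted p = 1.49e-05; log2 fold change 0.54 ± 0.06, adjusted p = 0.000462 against control). Ddit3, the factor CHOP of prolonged stress, fell to 9.22 and 10.01 against 17, 20.2 and 22 CPM (log2 fold change -1.02 ± 0.12, adjusted p = 3.67e-05). Amino acid transporters gave 7 rises and 2 falls among 13 genes, and 6 were above and 0 below the controls (3 and 0 without knockout 2). Slc7a3, a carrier of cationic amino acids, was 21.7 and 21.4 CPM against 0.207, 0.717 and 0.913 CPM (log2 fold change 5.10 ± 0.36, adjusted p = 8.15e-07) and 1.15, 2.04 and 3.6 CPM in the controls (log2 fold change 3.24 ± 0.31, adjusted p = 0.000143). Slc1a4, a carrier of small neutral amino acids, was 12.6 and 20.7 against 0.386, 1.01 and 1.9 CPM (log2 fold change 3.85 ± 0.38, adjusted p = 8.3e-06) and 2.21, 2.66 and 4.33 CPM in the controls (log2 fold change 2.44 ± 0.24, adjusted p = 0.000155). Endoplasmic reticulum chaperones rose in 15 of 20 genes in knockouts and in 15 of 20 in controls, with 2 above and 3 below the controls in the direct comparison. Heat shock proteins rose in 7 of 14 genes and fell in 1, among them the rise of the mitochondrial chaperone Hspd1 (log2 fold change 1.14).

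Target genes of p53, the DNA damage response factor, were also in part higher than both other groups. Of 29 tested genes 16 rose over naive and 6 fell (median 0.41). In the controls 7 were higher than naive and 12 lower (median -0.01), where 32.5% of all genes were higher and 39% lower. Against the controls 16 were higher and 1 lower (median 0.50), which became 12 and 1 of 30 without knockout 1 and 7 and 0 of 29 without knockout 2. Phlda3, a repressor of AKT signalling, stood at 15.6 and 17.1 CPM against 1.19, 1.95 and 2.25 CPM in naive (log2 fold change 3.12 ± 0.18, adjusted p = 1.71e-07) and 1.51, 2.33 and 3.76 CPM in control (log2 fold change 2.76 ± 0.24, adjusted p = 8.23e-05). Ccng1, cyclin G1, stood at 355 and 384 against 134, 157 and 183 CPM (log2 fold change 1.26 ± 0.10, adjusted p = 1.53e-06) and 139, 158 and 200.1 CPM (log2 fold change 1.21 ± 0.10, adjusted p = 5.03e-05). In both genes the naive and control ranges overlapped and the knockouts lay above both. Cdkn1a, the CDK inhibitor p21, stood at 16.2 and 15.8 against 3.67, 7.86 and 10.2 CPM (log2 fold change 1.18 ± 0.29, adjusted p = 0.00589). Falls in this list included Sesn1, a stress-induced inhibitor of mTORC1 (20.9 and 19.8 against 73.1, 105 and 144 CPM, log2 fold change -2.36 ± 0.22, adjusted p = 6.71e-06), and Xpc, which senses DNA lesions (log2 fold change -2.18). The BH3-only gene Bbc3 was below naive (6.37 and 7.39 against 9.47, 11.2 and 15 CPM, log2 fold change -0.73 ± 0.19, adjusted p = 0.00687) and above every control (1.38, 1.83 and 2.76 CPM). Its fall from naive had an adjusted p of 0.0758 without knockout 1.

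Of 16 tested genes of the BCL2 family 3 rose and 4 fell, near the shares over all genes, with a median of 0.03. The median became -0.09 with total count scaling, and with the length and GC trend removed 8 rose and 4 fell (median 0.30), so no direction is given here either. Bcl2, the survival factor, fell to 49.4 and 59.2 CPM against 97.7, 137 and 239 CPM (log2 fold change -1.41 ± 0.27, adjusted p = 0.0011). In the controls it was lower still (22.9, 29.1 and 35.8 CPM, log2 fold change 0.93 ± 0.16, adjusted p = 0.00287), and that difference had an adjusted p of 0.0573 without knockout 2. Pmaip1, the BH3-only protein NOXA, stood at 50.8 and 57.7 against 18.4, 22 and 35.9 CPM (log2 fold change 1.21 ± 0.20, adjusted p = 0.000371), and Mcl1, a survival factor, fell (log2 fold change -0.94).

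In the machinery of protein synthesis, MYC and ribosome biogenesis gave 18 rises and 3 falls among 28 genes (median 0.31). Ncl, nucleolin, stood at 1349 and 1631 CPM against 681, 803 and 914 CPM (log2 fold change 0.93 ± 0.10, adjusted p = 2.3e-05), while Myc itself fell to 86.6 and 79.3 against 132, 163 and 190.5 CPM (log2 fold change -0.93 ± 0.12, adjusted p = 7.68e-05). Cytosolic ribosomal proteins gave 4 rises and 26 falls among 79 genes (median -0.08), but with the length and GC trend removed 37 rose and 5 fell (median 0.25), so no direction is given for the family. Rps27, which fell under both, stood at 197 and 197 against 451, 572 and 724 CPM (log2 fold change -1.5 ± 0.16, adjusted p = 1.47e-05). Proteasome subunits rose in 26 of 33 genes and fell in 5 (median 0.48). Psmd2, a base subunit, stood at 811 and 767 against 445, 480.3 and 519 CPM (log2 fold change 0.75 ± 0.07, adjusted p = 8.26e-06). The 5 that fell were Psmb8, Psmb9 and Psmb10, the catalytic subunits of the immunoproteasome, and Psme1 and Psme2, its interferon-induced activator, by 0.39, 0.41, 0.77, 0.91 and 0.61 on the log2 scale. Without knockout 2, Psmb8 and Psmb9 were not called (adjusted p = 0.131 and 0.112), nor were they with the length and GC trend removed (adjusted p = 0.537 and 0.413).

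Interferon-stimulated genes fell in 33 of 40 and rose in 1, Ly6a (median -1.88; without knockout 1 the adjusted p of Ly6a was 0.332, and without naive 1, 6 or 8 it was 0.0562, 0.0591 or 0.0502, and against naive 3, 4, 5 and 7 alone 0.0851), and MHC class I presentation fell in 11 of 12 and rose in 0 (median -0.89). In the controls 36 and 12 were lower than naive. Type I and type II interferons induce these genes through transcription factors that bind response elements near their starts. The interferon-stimulated response element, searched as GAAA, any 2 bases and GAAA on either strand, occurred in 14 of the 28 listed genes with a promoter in the RefSeq table (50%) and in 3.46% of 27025 genes. These genes were listed as interferon-stimulated and counted whether or not they changed, so this excess too is a property of the list. The promoter of Igtp, a GTPase that disrupts pathogen vacuoles, is shown as the example among the 3 genes of the list named here that has a match (RefSeq GRCm38.p6, plus strand, chr11:58199306-58199555). The match, in capitals, begins 34 bases before the start.

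Igtp promoter: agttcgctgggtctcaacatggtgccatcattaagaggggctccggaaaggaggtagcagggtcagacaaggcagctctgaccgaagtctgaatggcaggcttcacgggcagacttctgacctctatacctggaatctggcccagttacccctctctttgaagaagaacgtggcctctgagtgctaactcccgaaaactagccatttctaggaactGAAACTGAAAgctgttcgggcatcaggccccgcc

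Igtp stood at 106 and 90.1 CPM against 371, 599.6 and 741 CPM (log2 fold change -2.56 ± 0.24, adjusted p = 5.43e-06). Oas2, which senses double-stranded RNA, stood at 0.436 and 0.681 against 13.4, 25.1 and 34 CPM (log2 fold change -5.39 ± 0.46, adjusted p = 3.11e-06). Ddx58, the viral RNA sensor RIG-I, stood at 36.1 and 38.6 against 117, 192 and 211 CPM (log2 fold change -2.27 ± 0.20, adjusted p = 3.48e-06). Both knockouts lay below every naive library in all 3 genes, which for Oas2 was a condition of its choice above. Of the 12 largest falls chosen above, Ifit1bl1 and Iigp1 stood at 6.24 and 3.47 against 127, 208 and 266 CPM and 2.18 and 1.91 against 47.9, 80.9 and 109 CPM. The class I genes H2-Q7 and H2-T23 stood at 736 and 741 against 1366, 1404 and 1595 CPM (log2 fold change -0.92 ± 0.08, adjusted p = 3.47e-06) and 274 and 217 against 642, 830.3 and 1104 CPM (log2 fold change -1.75 ± 0.17, adjusted p = 9.39e-06), and Tap2, a subunit of the peptide transporter, fell (log2 fold change -0.87). The naive libraries, high in all of these genes, are also those with the higher MHC class II and dendritic cell sums.

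S100 proteins and annexins rose in 11 of 16 genes and fell in 0 (median 0.67). Anxa2, which links membranes to actin, stood at 1264 and 1051 CPM against 368, 478 and 797 CPM (log2 fold change 1.23 ± 0.21, adjusted p = 0.000488), and Anxa1 at 41 and 36.3 against 8.19, 12.7 and 24.1 CPM. S100a4, a calcium-binding protein of motile cells, stood at 93.6 and 73.7 against 11.9, 13.8 and 47 CPM (log2 fold change 2.16 ± 0.43, adjusted p = 0.00169) and was well below the controls (269, 365 and 493 CPM, log2 fold change -2.14 ± 0.25, adjusted p = 0.000354).

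Splicing regulators were examined next, since TRA2B belongs to them. Of 36 tested hnRNPs and other splicing regulators 28 rose and 2 fell (median 0.57), and in the controls 29 and 5 did (median 0.39). Against the controls 10 were higher and 2 lower, and without knockout 2 it was 0 and 1. Hnrnpll, which directs the switch of CD45 exons in activated T cells, stood at 205 and 201 CPM against 52.3, 68.4 and 85.7 CPM (log2 fold change 1.60 ± 0.13, adjusted p = 1.75e-06). Ptbp1, a repressor of exons next to pyrimidine tracts, stood at 595 and 658 against 249, 317 and 350.0 CPM (log2 fold change 1.05 ± 0.10, adjusted p = 9.7e-06). SR proteins and their kinases split into 9 rises and 8 falls among 23 genes, and total count scaling made that 7 and 8. Tra2a, the paralog of Tra2b, rose to 95 and 101 against 41.4, 49.5 and 59.6 CPM (log2 fold change 0.99 ± 0.11, adjusted p = 2.03e-05) and stood above every control (57.5, 74.6 and 82.5 CPM, log2 fold change 0.43 ± 0.11, adjusted p = 0.0251), a difference lost without knockout 1 (adjusted p = 0.0788) or knockout 2 (0.214) and with the length and GC trend removed (0.423). Srsf10, a regulator of splicing in stress and mitosis, stood at 349 and 358 against 155, 176 and 201 CPM (log2 fold change 1.05 ± 0.09, adjusted p = 2.63e-06).

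Srpk1, the kinase that phosphorylates SR proteins, went the other way. It stood at 73.2 and 75.8 CPM against 198, 218 and 257 CPM in the naive libraries (log2 fold change -1.54 ± 0.10, adjusted p = 2.6e-07) and 150.0, 163 and 168 CPM in the controls (log2 fold change -1.12 ± 0.06, adjusted p = 3.11e-06), so both knockouts lay below all 16 other libraries. Nasp, a histone chaperone whose splicing TRA2B controls in other cells, stood at 98.7 and 90.5 CPM against 93.7, 131 and 154 CPM and was not called (log2 fold change -0.41 ± 0.16, adjusted p = 0.0593). Leaving out naive 5 or naive 6 gave a call as lower (0.0114 and 0.0335). So did DESeq2 (0.046), total count scaling (0.0209), all 3 groups in one fit (0.0136) and naive 1, 2, 6 and 8 alone (0.0433). A mean log2 CPM of at least 4 did too (0.017). Limma voom and removal of the length and GC trend did not, so its call depends on the setting. In the controls it was 261, 267 and 320.2 CPM, and there the knockouts were lower (log2 fold change -1.54 ± 0.09, adjusted p = 3.11e-06). Nonsense-mediated decay factors gave 7 rises and 3 falls among 17 genes. Etf1, a release factor, rose (log2 fold change 0.91) and Smg1, the kinase of UPF1, fell (-0.87).

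Transcript composition was tested over 44462 transcripts of 10127 genes with edgeR's diffSpliceDGE and a Simes test per gene, and 346 genes (3.42%) changed usage between knockout and naive, while 1362 had an unadjusted p under 0.05. Values are a transcript's share of the gene's estimated counts. These are estimates from StringTie, per the submitters' processing notes, in which one annotated transcript can take the counts of a similar one. Of 16 genes whose splicing TRA2B is known to control in other cells, with Tra2b itself left out, 13 could be tested and 1, Chek1, was called, which is a checkpoint kinase that stabilises stalled replication forks. Tra2b usage was called too (adjusted p = 0.00984), but not without knockout 1 (0.269) or knockout 2 (0.243).

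Chek1-207 took 26.0% of the Chek1 counts in knockout 1 and 67.4% in knockout 2, against 0, 0 and 5.31% in the naive libraries and 0, 2.03 and 8.30% in the controls (gene adjusted p = 0.00178). Without knockout 2 the adjusted p was 0.151. Chek1-207 lacks exon 3 of the main coding transcript Chek1-201, whose share was 43.2 and 18.5% against 49.8, 68.6 and 82.8%. That exon spans 224 bases, which is not a multiple of 3. The level of the whole gene was 87.2 and 80.6 CPM against 14.7, 26.1 and 32.4 CPM (log2 fold change 1.78 ± 0.19, adjusted p = 1.43e-05). Exon 3 (GENCODE M21, GRCm38, minus strand, chr9:36723797-36724020) is shown with its 7 AGAA copies in capitals. Of 11082 exons of similar length 2.02% held as many and 76.9% held at least 1, and exon 3 of Ergic2, shown beneath it for comparison (chr6:148204776-148204884, minus strand, 109 bases), held 0, where 59% of 27659 exons of its length held at least 1.

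Chek1 exon 3: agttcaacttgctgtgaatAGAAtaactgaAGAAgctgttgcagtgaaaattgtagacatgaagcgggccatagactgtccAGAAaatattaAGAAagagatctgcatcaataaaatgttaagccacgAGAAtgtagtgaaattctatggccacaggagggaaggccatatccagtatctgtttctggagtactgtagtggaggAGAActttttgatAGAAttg

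Ergic2 exon 3: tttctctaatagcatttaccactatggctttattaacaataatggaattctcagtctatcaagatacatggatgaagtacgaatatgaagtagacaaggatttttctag

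The exons were looked up after the transcript values had been seen. Ergic2-201, which lacks that exon and is annotated as a target of nonsense-mediated decay, took 18.6 and 19.6% of the counts of Ergic2, a gene of transport between endoplasmic reticulum and Golgi. In all 8 naive and all 8 control libraries it had 0 counts, which allows a share of up to 0.0477% in a naive library (gene adjusted p = 7.41e-23). This limit and those below cover the sampling of counts only. They do not bound errors in how the estimates divide counts between similar transcripts. Rnmt-202 took 64.6 and 50.4% of the counts of Rnmt, the mRNA cap methyltransferase, against 0 counts in every naive library, which allows up to 0.0649%, and 0, 4.38 and 12.6% in the controls (adjusted p = 5.52e-26). It lacks exon 7, of 165 bases, which holds 4 AGAA copies, as many as 8.43% of 26547 exons of its length. Madd-206 took 51.6 and 49.4% of the counts of Madd, a regulator of MAP kinase signalling and Rab3, against 0 counts in the naive libraries, which allows up to 0.0249%, and 0, 0.0955 and 11.6% in the controls (adjusted p = 1.14e-16). In Chek1, Ergic2, Rnmt and Madd the shares of these transcripts in the knockouts lay above all 16 other libraries. Ergic2, Rnmt and Madd were chosen by their low adjusted p against naive, and the transcripts by their large difference from naive. Standing above the naive libraries therefore largely follows from that choice. Chek1-207, Rnmt-202 and Ergic2-201 also end earlier than the coding transcripts Chek1-201, Rnmt-201 and Ergic2-208. They hold 2142, 1852 and 1661 bases against 3397, 5008 and 4174 bases. Madd-206 starts elsewhere than the coding transcript Madd-213, holds 2 exons absent from it and lacks 1 of its exons. Which of these differences drew the counts was not tested, so the shares do not measure skipping of the named exons alone.

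**Figure D4:**
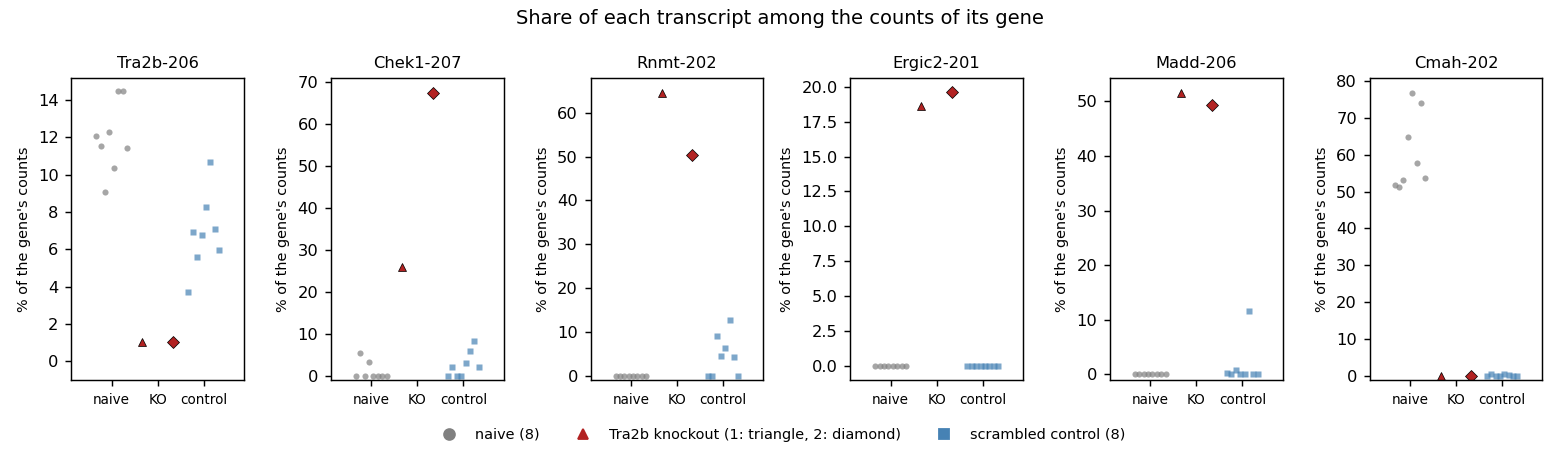
Share of the gene's counts, in percent, taken by Tra2b-206, Chek1-207, Rnmt-202, Ergic2-201, Madd-206 and Cmah-202 in each naive, knockout and control library. Ergic2-201 is at 18.6 and 19.6% in the knockouts and at 0 in the 16 other libraries, and Cmah-202 is at 51.2% or more in the naive libraries and under 1% in the others.

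Other usage changes were shared with the controls. Cmah-202, of the enzyme that makes N-glycolylneuraminic acid, took 0.153 and 0.0759% in the knockouts against 51.2, 55.6 and 76.8% in the naive libraries, and at most 0.568% in the controls (adjusted p = 5.2e-16). It starts 39039 bases upstream of Cmah-207, which took 68.2 and 66% in the knockouts. In Ptprc, the phosphatase CD45, usage was called for the gene (Simes test, adjusted p = 3.57e-25). The long form Ptprc-207, which holds 3 exons that Ptprc-203 lacks, took 2.61 and 26.9% against 31.2, 51.9 and 60.8%. Ptprc-203 took 32.8 and 28.7% against 11.9, 15.1 and 19.3%. Tested as single transcripts by diffSpliceDGE, neither passed (adjusted p = 0.0728 and 0.464). The shortest, Ptprc-204, did (adjusted p = 1.2e-25). It took 29.1% in knockout 1 and 5.32% in knockout 2 against at most 0.598% in the naive libraries, and 1.94, 3.9 and 44.4% in the controls.

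Ppia-201, a decay-annotated transcript of cyclophilin A, had 0 counts in both knockouts against 3.01 to 4.63% in the naive libraries and 2.72 to 4.82% in the controls. Ccdc17-202 took 59.9 and 73.5% against 0 in the naive libraries, in a gene with 96 to 885 counts per library, and reached 76.6% in a control. Rpn2-206 was high in knockout 1 alone (24.2% against 0.00443% in knockout 2), and the gene's adjusted p was 1 without it.

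Of 17995 genes tested against both groups, 717 were higher than both naive and control and 489 lower than both. A further 295 were above naive and below control, 163 below naive and above control, and 3164 higher and 3494 lower than naive without a call against control. The 8 largest differences each way from control were chosen among genes called in the same direction as from naive. Both knockouts had to lie outside the control range. The rises included Pck2, Asns and Eif4ebp1, given above, and 4 genes higher in knockout 2 than in knockout 1. Ranbp2, the nuclear pore SUMO ligase, stood at 84.2 and 317 CPM against 53.2, 63.9 and 75.7 CPM, and without knockout 2 its adjusted p against naive was 0.0506. Zfp26, Edem3 and Gprasp1 were at 22.3 and 73.1, 15.8 and 45.2 and 21.5 and 42.3 CPM in knockout 1 and 2, and without knockout 2 their adjusted p against naive ran from 0.453 to 0.82. Without knockout 2 the calls against control were lost for Ranbp2, Zfp26 and Edem3 (adjusted p = 0.397, 0.333 and 0.3) but not for Gprasp1. Knockout 1 lay within the naive range in Zfp26, Edem3 and Gprasp1 and above it in Ranbp2.

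The falls were even between the knockouts. Rexo4, a nucleolar exonuclease of ribosome assembly, stood at 30.7 and 22.7 CPM against 81, 89 and 99 CPM in naive (log2 fold change -1.71 ± 0.13, adjusted p = 1.34e-06) and 73.5, 85.7 and 91.4 CPM in control (log2 fold change -1.66 ± 0.12, adjusted p = 2.32e-05). Mrps15, a protein of the small mitochondrial ribosomal subunit, stood at 40.1 and 38.1 against 76.6, 86.4 and 97.5 CPM (log2 fold change -1.10 ± 0.11, adjusted p = 7.97e-06) and 101, 109 and 123 CPM (log2 fold change -1.5 ± 0.09, adjusted p = 4.81e-06). Adam8, a membrane metalloprotease, stood at 11.6 and 12.2 against 28.4, 55.1 and 74.7 CPM (log2 fold change -2.15 ± 0.33, adjusted p = 0.000206) and 26.7, 72.4 and 83 CPM (log2 fold change -2.48 ± 0.36, adjusted p = 0.00147). In each of these 3 genes both knockouts lay below all 16 other libraries, but lying below every control was a condition of the choice. Ckb, the brain-type creatine kinase, fell to 2.03 and 2.48 against 16.2, 34.2 and 63 CPM and 5.04, 8.04 and 8.93 CPM in the controls (log2 fold change -1.65 ± 0.28, adjusted p = 0.00313).

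Tgtp1 and Tgtp2, interferon-induced GTPases, fell to 26.5 and 16.9 and 39.1 and 26.5 CPM, with naive medians of 899 and 940.5 CPM. They are near-identical copies, so the split of counts between them is uncertain. Slfn1, a schlafen family protein, fell to 14.4 and 13.1 against 192, 274 and 374 CPM (log2 fold change -4.29 ± 0.24, adjusted p = 1.51e-07), and Cnn3, a calponin, to 2.63 and 2.26 against 17, 32.5 and 41.8 CPM. Their calls against control were lost without knockout 1 (adjusted p = 0.111 and 0.0687) and without knockout 2 (0.221 and 0.182), and that of Tgtp1 without knockout 2 (0.0605).

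**Figure D5:**
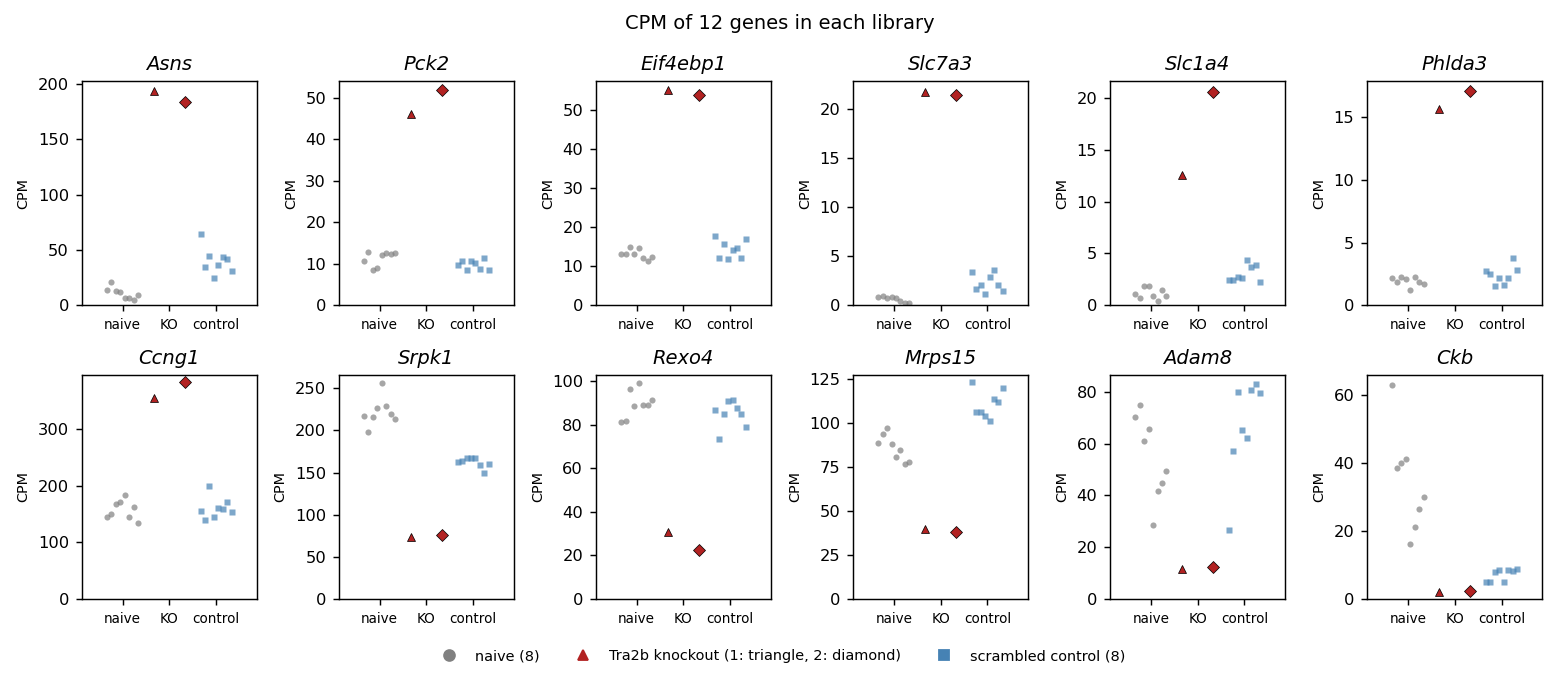
CPM of Asns, Pck2, Eif4ebp1, Slc7a3, Slc1a4, Phlda3, Ccng1, Srpk1, Rexo4, Mrps15, Adam8 and Ckb in each naive, knockout and control library, with 1 panel per gene. Pck2 lies at 46.0 and 51.8 CPM in the knockouts with every other library at or below 12.8 CPM, and Srpk1 at 73.2 and 75.8 CPM with every other library at or above 150 CPM.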

How the data were processed

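Estimated counts per gene and per transcript, written as whole numbers, are the values the authors deposited. The submitters' processing notes name DESeq2 1.30.1, StringTie 2.1.0, STAR 2.7.1a, R 4.0.5 and SAMtools 1.9, and the builds mm39 and mm10 without their role. All 55536 named identifiers occur in GENCODE M21 (GRCm38), which supplied coordinates. The 26248 rows with numeric identifiers held 0.0513 to 0.132% of a library's counts, and the 97 spike-in rows held 0 counts. No column was left without a sample.

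Genes were kept by filterByExpr (minimum count 10), scaled by TMM and compared by the robust quasi-likelihood test of edgeR 4.0.16 at a prior count of 2 (R 4.3.3), separately for each pair of groups, with Benjamini-Hochberg adjustment over all genes. Library depth (68249844 to 93495846 counts in the groups compared) sets the counting error, and the spread between libraries was estimated with only 2 of them in the knockout group. Transcript usage was tested with diffSpliceDGE, and shares and make-up measures with exact two-sided permutation tests over 45 splits. The steps were tested on simulated data. Alternatives used DESeq2 1.42.0 and limma 3.58.1 voom, other scalings and filters, removal of a length and GC trend (5 knots), and leaving out each library. Replicate numbers were not taken to pair libraries across groups.

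The comparison and the 49 gene lists (12 for other cell types) were chosen with earlier results of these data known. Named genes were Tra2b, the 12 largest rises and 12 largest falls, the 8 largest each way that went beyond the controls, each among called genes whose log2 CPM averaged 4 or more, without overlap between the groups, leaving out predicted genes, pseudogenes, receptor segments and members of the other-cell lists, and up to 4 genes per list by lowest p. Usage named Tra2b, Ptprc, the TRA2B targets and the 8 genes of lowest adjusted p. Genes outside that rule (Tcf7, Il7r, Cdkn1a, Trib3, Atf4, Ddit3, Bbc3, S100a4, Nasp, Ly6a, the immunoproteasome genes, Cd4, Foxp3, Siglech and Clec10a) were chosen after their values were seen. Some genes that the rule names are not reported here.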

Additional observations from a re-analysis of the deposited data

Results flagged for a closer look

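In 23 of 186 sets of naive or control values, 1 library stood apart from the rest by Dixon's criterion, where chance alone would mark about 1 in 20, or 9.3 sets. Naive 2 was that library in 11 of the sets of naive values. It was the highest naive library for Nrp1 (12.04 CPM), Slamf1 (26.83 CPM), Ctla4 (26.39 CPM), Ndc80 (115.9 CPM), Anxa2 (796.8 CPM), S100a4 (47.05 CPM), the Trbv12-1 share (12.44%) and the summed CD4 and regulatory T cell markers (99.38 CPM), and the lowest for Itgae (82.02 CPM), Ddx58 (116.8 CPM) and the mitochondrial share (0.898%). In each gene among these that was called, naive 2 lay nearer to the knockouts than the other naive libraries did, and the calls held without it.

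The other naive values were Zfp26 at 26.12 CPM and Nars at 233.3 CPM in naive 4, Il7r, the interleukin-7 receptor, at 717.7 CPM, Cyp51, a sterol enzyme, at 50.45 CPM and Klra7, an NK cell receptor, at 46.8 CPM in naive 5, H2-Q7 at 1595 CPM and the Trav14 share at 24.22% in naive 6, and Mcl1 at 106.9 CPM, Hbb-bs, a haemoglobin chain, at 11.18 CPM and the summed red cell markers at 45.89 CPM in naive 8. Among the controls, Tra2b was 337.7 CPM in control 2, below both knockouts, and Adam8 was 26.66 CPM in control 1, still above both knockouts.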

How the results depend on the processing

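Between 8385 and 8986 genes were called between knockout and naive when a naive library was left out, and 6766 to 8986 over all libraries left out in turn (3093 to 4189 higher, 3673 to 4935 lower). A mean log2 CPM of at least 4 gave 4964 calls (2493 higher, 2471 lower), where fewer genes were tested, and a change of at least 2-fold gave 4078 (1248 and 2830). With the replicate block it was 3322 (1177 and 2145; 6666 at an unadjusted p under 0.05). Same-numbered libraries correlated at 0.155 and -0.031 with naive, where neither knockout was closest to its own number, and at 0.21 and 0.223 with control, where knockout 2 was. The labels do not say that a number marks anything shared, so 2 such libraries are not taken as pairs. Total count scaling gave 38.6% of calls higher and limma voom 54.8%, against 47.3%.

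Against the controls, calls ran from 651 to 2858 as libraries were left out (304 to 1459 higher, 347 to 1406 lower), with the lowest numbers without knockout 2. Limma voom gave 694 lower calls, the length and GC trend removal 768 higher calls, a change of at least 2-fold 701 (379 and 322), and the replicate block 0, 0 and 0 calls in edgeR, with 3536 genes at an unadjusted p under 0.05 and no other tool run with the block. With 0 calls over all genes, the block necessarily ended every call of a named gene against control, 31 in number. Among them were Asns (adjusted p = 0.0694), Pck2 (0.0572), Phlda3 (0.0624), Ccng1 (0.059) and Srpk1 (0.0624). Against naive the block ended 33 calls of named genes, among them Tra2b (adjusted p = 0.0899), and 200 named genes kept their result. The cause was not tested.

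Usage calls ran from 292 to 359 as libraries were left out, but of the 292 without knockout 1 only 127 were among the 346, and of the 317 without knockout 2 only 126, against at least 290 when a naive library was left out. Limma voom gave 2069, of which 166 were shared with the 346, and the replicate block gave 191 (70 shared). In edgeR with the block, usage calls were lost for Tra2b (adjusted p = 0.0925), Chek1 (0.364), Madd (0.0625), Ccdc17 (0.0651) and Rpn2. Those of Rnmt, Ergic2, Cmah, Ptprc and Ppia held. The poison exon difference ran from -11.34 to -10.57 percentage points, with p from 0.0278 to 0.111, and without a knockout library the smallest possible p is 0.111. With other denominators it was -11.44 and -12.03. Make-up measures passing the test numbered 0 to 10, where leaving out a library raises the smallest p that can be reached. Of the named genes, 1 reversed: Alas2 (-0.64 without knockout 1 to 3.0 without knockout 2), for a cause that was not tested. Without knockout 1 and 2, calls against naive were lost for 10 and 13 named genes, and at most 2 were lost without any naive library. Depth sets the limits given for transcripts at 0 counts, which leave out errors in dividing counts between similar transcripts.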

Other observations

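Among markers of other T cells, Trdc, the constant segment of the T cell receptor delta chain, stood at 112 and 102 CPM in the knockouts against 11.8, 16.7 and 22.8 CPM in the naive libraries and rose, while Tcrg-C1 and Tcrg-C2, constant segments of the gamma chain, fell. Sox13, a transcription factor of gamma delta T cells, stood at 6.52 and 4.42 CPM against 0, 0.138 and 0.404 CPM and rose. The summed level of the list was 166 and 144 CPM against 83.9, 93.0 and 110 CPM, with 4 rises and 4 falls among 10 genes. Ighm, the constant region of IgM, stood at 800 and 635 CPM against 661, 811 and 1040 CPM and did not pass the test, while Ms4a1 and Cd79b, which mark B cells, fell.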
